A study of Saccharomyces cerevisiae with 2 samples.

Results

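The genes described here are the 60 budding yeast genes of 200 to 500 codons with the fewest ribosome footprints for their number of sequencing reads. They were taken from 2048 genes of that length among 4579 genes in the authors' table of footprints by codon. They were chosen by the footprint to read ratio, the share of all footprints that fall in a gene divided by its share of the authors' abundance column. A ratio of 1 is the level of a gene whose 2 shares are equal. The study holds 1 library of total RNA and 1 of ribosome footprints from Saccharomyces cerevisiae strain yJC2229, whose genotype is not given in the sources used here. The cells were dividing in YPD, a rich medium with glucose, at 24 °C and in mid-log phase, without pretreatment, and cycloheximide was present when they were lysed. With 1 library of each kind there is no replicate, so no test was made, and every interval below is a 95% interval for counting error only.

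A ribosome covers a short stretch of mRNA and protects it from nuclease, and sequencing those stretches shows where ribosomes were. An mRNA with many reads and few footprints carried few ribosomes for its abundance. Known ways to reach that state in yeast include short reading frames in the leader that capture scanning ribosomes, introns that block translation until they are removed, and slow initiation. The header of the abundance column names no library, so the ratio equals translational efficiency only if that column came from the total RNA. Reading the column as whole reads, 3756929 footprints and 21353772 reads fell in the listed genes.

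The 60 genes held 2909 footprints and 101824 reads, or 0.0774% of footprints and 0.477% of reads. Their pooled ratio was 0.162. HAC1 alone gave 21.7% of the reads, and without it the pooled ratio was 0.205. Single ratios ran from 0.00720 to 0.282 with a median of 0.228, against a median of 0.918 for the other 1988 genes of this length. A ratio at or below 0.5 was found in 14.8% of genes of 200 to 500 codons and, by construction, in all 60 members. These values describe the choice of genes and support nothing further.

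**Figure D1:**
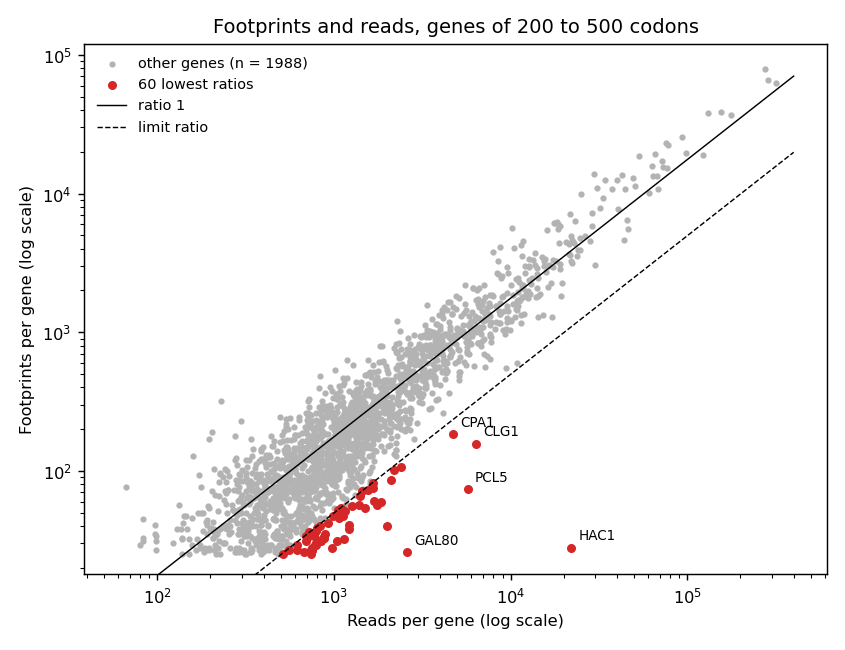
Footprints against reads per gene, both on log scales, for genes of 200 to 500 codons, with the 60 lowest ratios in red, the other 1988 genes in grey, a solid line at ratio 1 and a dashed line at the limit ratio of 0.282. HAC1, at 28 footprints and 22100 reads, lies farthest to the right of the dashed line, and most red points lie near the table's lowest value of 25 footprints.

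The members stood apart in footprints more than in reads. The ratio that chose them is built from both numbers, so this describes the choice and is no separate result. Their median was 37.5 footprints and 1014.5 reads, against 172 footprints and 1119 reads over all genes of 200 to 500 codons. Of the 60, 25 had more reads than the median gene of this length and 1, CPA1, had more footprints. Per codon, 40 of 60 had fewer reads than the median gene. No gene in the table has under 25 footprints, and at that number a gene needs 504 reads to reach the limit ratio. For that reason 389 of the 2048 genes (19.0%, exact binomial interval 17.3% to 20.8%) could not have become members at any footprint number the table holds. The other 1599 non-members had at least 504 reads, and they are called the eligible others below.

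Few counts stood behind most ratios. Under 50 footprints were recorded for 40 of the 60 genes, and 4 had 100 or more, namely CPA1 with 185, CLG1 with 157, YLR108C with 107 and WHI2 with 101. For 15 members the whole interval of the ratio lay below the limit, and these were HAC1, GAL80, PCL5, UCC1, CLG1, PFK27, AAR2, LDB17, BER1, SIP5, APM4, MEP3, MTM1, PHD1 and CPA1. Of the other genes, 96 had intervals that reached below the limit. Just inside the limit stood SAD1 (52 footprints, 1052 reads, ratio 0.281), PFU1 (54, 1090, 0.282) and BTN2 (36, 725, 0.282). Just outside stood WTM2 (58, 1168, 0.282), FZF1 (27, 539, 0.285) and ECM7 (67, 1323, 0.288). Counting error does not separate those 6 genes from each other.

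**Figure D2:**
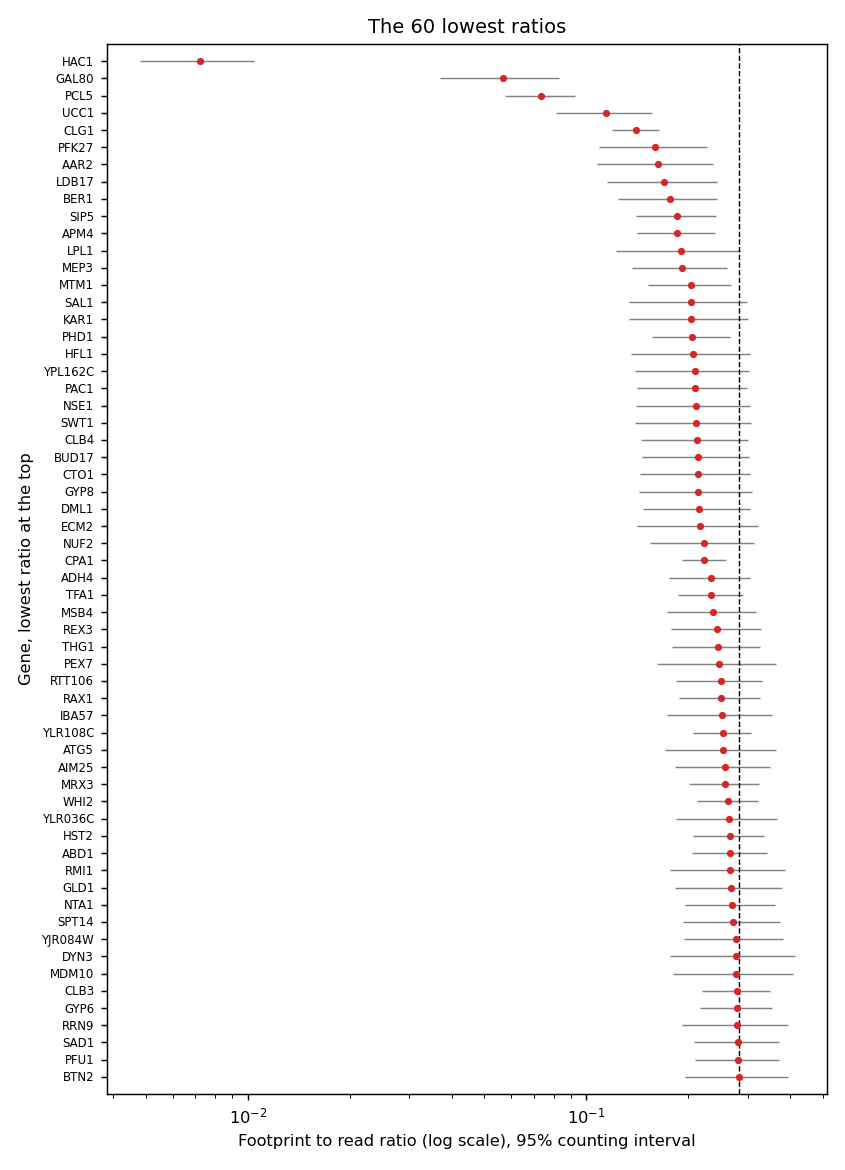
Footprint to read ratio of each of the 60 genes on a log scale, lowest at the top, with 95% counting intervals as bars and the limit of 0.282 as a dashed line. The first 5 genes, from HAC1 at 0.00720 to CLG1 at 0.140, have intervals well below the line. The interval of LPL1 (0.191) crosses it, and from SAL1 (0.204) downwards all do except those of PHD1 and CPA1.

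Among regulators of transcription, HAC1 (YFL031W, chromosome VI, 75179 to 76147, sacCer3) had the lowest ratio of any member, at 0.00720 (0.00478 to 0.0104). It encodes the factor of the unfolded protein response, and its mRNA is known to carry an intron that holds translation back until the Ire1 nuclease removes it. The annotated gene spans 969 bases and the table counts 240 codons in it, so 249 bases of the gene lie outside the counted frame. Of its 28 footprints, the leading codon ACG held 5 over 5 occurrences. No footprint fell on its stop codon. IRE1, at 1116 codons, had 43 footprints for 2215 reads (ratio 0.110, 0.0796 to 0.149), and it is outside the length range, in a table where ratios fell with length.

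GAL80 (YML051W, chromosome XIII, 171594 to 172901) came next. It encodes the repressor that binds the activator Gal4 when galactose is absent, and the cells here grew on glucose. It had 26 footprints for 2606 reads, a ratio of 0.0567 (0.0370 to 0.0833), and its leading codon GGC took 6 of the 26. PHD1, a transcription factor of pseudohyphal growth, had 61 footprints and 1685 reads (0.206). TFA1, the large subunit of the general factor TFIIE, had 86 footprints and 2092 reads (0.234, 0.186 to 0.290). Its partner TFA2, at 329 codons, had 303 footprints and 1272 reads, which gives 1.35 (1.19 to 1.54). TFA1 has 483 codons, and, like the other relatives set beside members here, TFA2 was picked after values were seen, so such pairs are descriptions of genes that the ratio had already separated. RRN9, of the upstream activating factor of RNA polymerase I, had 34 footprints and 692 reads (0.279). The histone chaperone gene RTT106 had 51 and 1163 (0.249), and the sirtuin gene HST2 had 73 and 1564 (0.265).

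The members include 4 cyclins, the activating partners of cyclin-dependent kinases. PCL5 (YHR071W, chromosome VIII, 237004 to 237693), a partner of the kinase Pho85 that is known to direct the starvation regulator Gcn4 to degradation, had 74 footprints and 5723 reads. Its ratio was 0.0735 (0.0576 to 0.0924). CLG1 (YGL215W, chromosome VII, 87981 to 89339), another Pho85 partner, had 157 footprints and 6373 reads (0.140, 0.119 to 0.164). Among the other Pho85 cyclins in the table, PCL1, PCL2, PCL6, PCL7, PCL8, PCL9 and PCL10 had ratios from 0.376 for PCL10 to 0.979 for PCL1, on 438 to 1254 reads.

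The remaining cyclins act in mitosis. CLB4 had 33 footprints and 882 reads, a ratio of 0.213 (0.145 to 0.301), and CLB3 had 82 and 1673, a ratio of 0.279 (0.220 to 0.348). The intervals of these B-type cyclins overlap. Their relatives had higher ratios at similar lengths, with CLB1 at 0.420 (0.361 to 0.485), CLB2 at 0.439 (0.375 to 0.512), CLB5 at 0.600 (0.458 to 0.774) and CLB6 at 0.645 (0.497 to 0.825). All 6 B-type cyclins lay below the median of 0.903 for genes of this length, but ratios fell with length. All except CLB6 have at least 400 codons, and the median of the other genes in that part of the range was 0.691. The ratios of CLB1 to CLB5 also lay below this lower median, but the interval of CLB5 reached above it.

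Enzymes and transporters made up 8 members, with ratios from 0.160 to 0.272. CPA1 (YOR303W, chromosome XV, 882899 to 884134), the small subunit of the carbamoyl phosphate synthetase of arginine synthesis, is a textbook case of control by a leader peptide that stalls ribosomes when arginine is plentiful. It had 185 footprints and 4711 reads, a ratio of 0.223 (0.192 to 0.259). The frame of that peptide is annotated as YOR302W at 882765 to 882842, just before CPA1. It is not among the genes of the authors' table, so it has no counts here.

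PFK27, which makes the glycolytic activator fructose 2,6-bisphosphate, had 32 footprints and 1137 reads (0.160, 0.109 to 0.227). Its isoenzyme gene PFK26, of 828 codons, had 44 and 1213 (0.206, 0.149 to 0.278), and their intervals overlap. ADH4, an alcohol dehydrogenase unrelated in sequence to the main fermentation enzyme, had 57 footprints and 1390 reads (0.233, 0.176 to 0.304). ADH5, of similar length and read number, had 162 footprints and 1529 reads (0.602, 0.509 to 0.708). The ammonium permease gene MEP3 had 41 footprints and 1219 reads (0.191, 0.136 to 0.261), while MEP2, of 500 codons, had more footprints on fewer reads, 73 on 676 (0.614, 0.475 to 0.782). The remaining genes of the group were the lipid droplet phospholipase gene LPL1 (25 footprints, 745 reads), BUD17 (33, 879), SPT14, the catalytic subunit of the first step of GPI anchor synthesis (40, 837), and the N-terminal amidase gene NTA1 (47, 993). SPT14 is also the only member besides HAC1 whose annotated span, 1459 bases, exceeds its 454 codons by more than 3 bases. At a higher threshold on that excess, which both genes pass, the share was 3.33% in members and 3.72% in the other genes of this length.

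RNA processing was represented by 7 genes with a median ratio of 0.244. AAR2, an assembly factor of the U5 particle of the spliceosome, was lowest at 0.163 (0.108 to 0.237), on 28 footprints and 977 reads. The splicing factor genes ECM2 (26 footprints, 681 reads) and SAD1 (52, 1052) had ratios of 0.217 and 0.281. SWT1, an endoribonuclease, had 28 and 754 (0.211), and the exonuclease gene REX3 had 46 and 1072 (0.244). THG1, which adds a guanosine to histidine tRNA, had 48 and 1114 (0.245). ABD1, the methyltransferase that completes the mRNA cap, had 66 and 1409 (0.266, 0.205 to 0.341), below the other capping enzymes CET1 at 0.850 (0.729 to 0.987) and CEG1 at 0.703 (0.593 to 0.829). CEG1 has 460 codons and ABD1 437.

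In membrane traffic, a group put together after values were seen, 6 genes had ratios from 0.170 to 0.282. None of them is on the list of vesicle traffic and septin genes, whose 67 genes of this length had a median ratio of 1.10 and none at or below 0.5. APM4, the medium subunit of the clathrin adaptor AP-2, had 60 footprints and 1838 reads (0.186, 0.141 to 0.240). The large adaptor subunits APL1 and APL3 stood at 0.202 and 0.154 with 701 and 1026 codons, and the small subunit APS2, with 148 codons, at 1.01. LDB17, a regulator of actin at endocytic sites, had 31 and 1036 (0.170). GYP8, MSB4 and GYP6 encode proteins that switch off Rab GTPases. They had 30, 47 and 71 footprints on 796, 1127 and 1447 reads, with ratios of 0.214, 0.237 and 0.279 whose intervals overlap. Of the same family, BUB2, with 307 codons, was at 0.690 (0.479 to 0.968). Its longer genes GYP5, GYP7, GYP1, MSB3 and MDR1, of 634 to 951 codons, ran from 0.620 for GYP5 to 0.0966 for MDR1. BTN2, a sorting factor of late endosomes, was the last gene inside the limit.

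The 7 genes of the cytoskeleton and of chromosome maintenance had between 25 and 38 footprints each, so their order is not resolved. They were BER1 (38 footprints, 1224 reads, ratio 0.176), KAR1 of the spindle pole body (27, 751, 0.204), the dynein regulator gene PAC1 (31, 843, 0.209), NSE1 of the Smc5-Smc6 complex (29, 781, 0.211), the kinetochore gene NUF2 (35, 892, 0.223), RMI1 of the Sgs1 helicase complex (29, 619, 0.266) and the dynein light intermediate chain gene DYN3 (25, 514, 0.276). DYN3 had the fewest reads of any member. NUF2 and NDC80, which pair in one kinetochore complex, had ratios of 0.223 (0.154 to 0.313) and 0.305 (0.230 to 0.397) with overlapping intervals. SPC25 of the same complex, with 222 codons, had a ratio of 1.10 (0.843 to 1.42).

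Mitochondrial proteins also gave 7 members, with ratios from 0.203 to 0.277. The inner membrane carriers MTM1 (54 footprints, 1509 reads) and SAL1 (27, 753) had ratios of 0.203 and 0.204. The iron-sulfur assembly factor gene IBA57 had 34 and 768, and the outer membrane tether gene MDM10 had 27 and 555 (0.277, 0.181 to 0.407). MDM34, which acts in the same tether between mitochondria and endoplasmic reticulum, was close to it at 0.306 (0.233 to 0.394), while MMM1 of that tether was at 0.751 (0.578 to 0.964). DML1 (33 footprints, 872 reads), AIM25 (42, 932) and MRX3 (75, 1662) complete the group.

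The last 14 members have other or unassigned roles. UCC1, an F-box protein that marks peroxisomal citrate synthase for destruction, was the fourth lowest overall with 40 footprints and 1987 reads (0.114, 0.0815 to 0.156). SIP5, linked to the kinase Snf1, had 57 and 1747 (0.185), WHI2, of the general stress response, 101 and 2185 (0.263), the peroxisomal import receptor gene PEX7 27 and 622 (0.247) and the autophagy gene ATG5 31 and 694 (0.254). HFL1 had 27 footprints and YPL162C 29, CTO1 31, GLD1 33, YLR036C 37, YJR084W 39, PFU1 54, RAX1 56 and YLR108C 107. Their reads ran from 700 for GLD1 to 2405 for YLR108C.

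Gene lists by function were compared with the members by counts. Of the 2048 genes, 2.93% are members, and 12 of 60 members (20%) were on any of 21 lists, against 33.6% of all genes of this length. Of 24 listed cyclins and kinase regulators in the length range, 4 were members, and of 8 genes listed for repression by leader frames or introns, 2 were, HAC1 and CPA1. The median ratios of those lists were 0.630 and 0.511. Mitochondrial carriers gave 2 of 24, transcription factors 2 of 43 (HAC1 and PHD1), membrane transporters 1 of 27, glycosylation and GPI genes 1 of 34, glycolysis and fermentation 1 of 24 and amino acid synthesis 1 of 58. None came from 78 ribosome biogenesis genes, 34 cytosolic ribosomal proteins, 53 mitochondrial ribosome and translation genes, 33 proteasome genes, 25 translation factors or 24 chaperones, nor from 54 sterol and lipid enzymes, 41 cell wall and secreted proteins, 30 genes of near-identical pairs or 2 meiosis genes. Of 4 genes listed for regulated splicing, 1 was a member. Among 40 kinases and phosphatases none was a member although their median ratio was 0.597. These counts are descriptions, since the ratio chose the members.

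Length differed between members and others. The median was 426 codons for members and 345 for the eligible others, and 35 of 60 (58.3%, 44.9% to 70.9%) had over 400 codons, against 31.0% (28.7% to 33.3%) of the eligible others. Over the 2048 genes a straight line of log2 ratio on log2 length had a slope of -0.96, and the Spearman correlation of ratio and length was -0.483, a description across genes that share both libraries. The distance from that line holds the same ratio that chose the members, so it is given as a description. All 60 lay over 1 log2 unit below the line, with a median of -1.67, as did 114 others. Ranking on the distance from that line kept 43 of the 60.

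**Figure D3:**
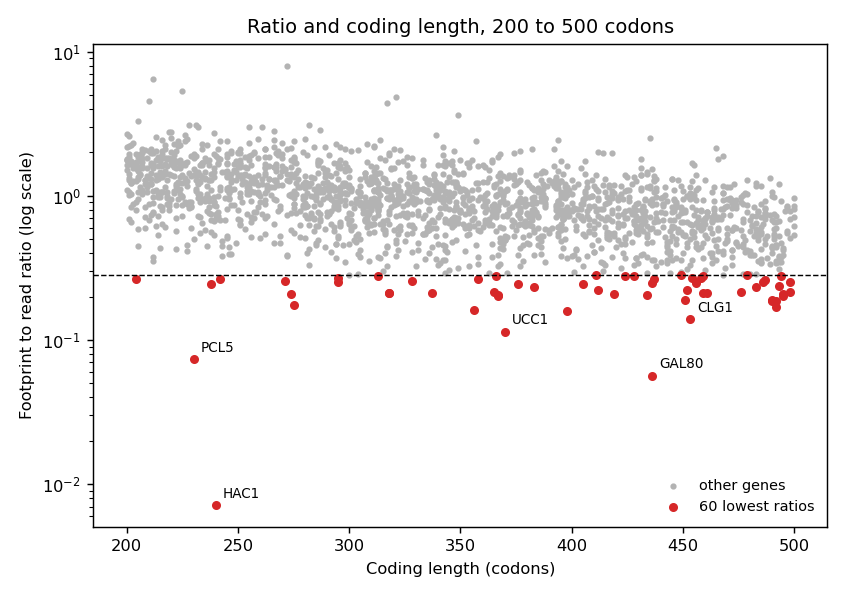
Footprint to read ratio on a log scale against coding length in codons for genes of 200 to 500 codons, with the 60 lowest ratios in red, the others in grey and the limit of 0.282 as a dashed line. The grey cloud falls with length. It comes close to the line at its long end, but also at shorter lengths, as for FZF1 (300 codons, 0.285). Of the 60 members 35 have over 400 codons, while HAC1 and PCL5 lie far below the line at 240 and 230 codons.

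Codon choice, which the ratio did not use, was next compared. The 23 codons favoured by highly expressed yeast genes made up 43.4% of the codons of members, against 49.9% in the eligible others. Codon occurrences are fixed by sequence and have no counting error, so no interval is given. Single members ran from 34.1% to 77.5%. By gene, the median was 42.5% in members and 46.7% in the eligible others, and 53 of 60 members lay below the latter. Members also had fewer reads per codon, with medians of 2.58 and 4.42, and the preferred share rose with reads per codon over the 2048 genes (Spearman correlation 0.699). At 1 to 2 reads per codon the medians were 41.6% in 19 members and 42.2% in 405 others, and at 2 to 4 they were 42.5% in 26 and 43.8% in 533. The gap was wider at higher read density, with 44.2% in 11 members against 46.8% in 389 others at 4 to 8 reads per codon.

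At 8 or more reads per codon stood 4 members, HAC1, PCL5, CLG1 and CPA1, with a median preferred share of 45.0% against 56.7% for 453 others. HAC1 had 92.1 reads per codon and a preferred share of 42.5%, PCL5 43.5%, CLG1 46.6% and CPA1 56.8%. Of these CPA1 alone reached the median of genes with that many reads. In ADH4 77.5% of codons were preferred, the highest share of any member, and in the non-member TIR1, at similar read density, 82.4% were. KAR1 had the lowest, at 34.1%.

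**Figure D4:**
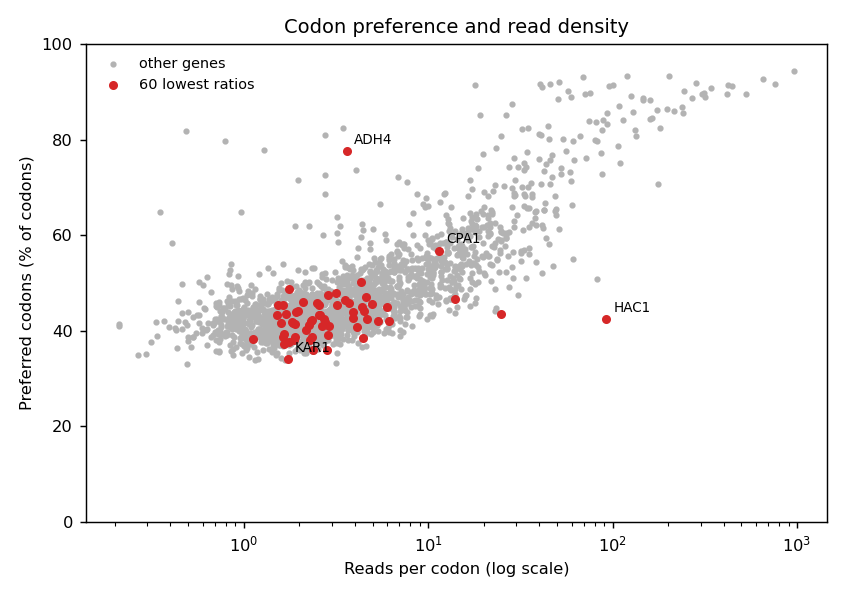
Share of preferred codons in each gene against reads per codon on a log scale, with the 60 lowest ratios in red and other genes of 200 to 500 codons in grey. Most members lie within the grey cloud. ADH4 (77.5%) is the highest of them, at a share that many other genes pass, such as TIR1 (82.4%) and ENO2 (92.7%). HAC1 (42.5%) lies below the other genes with as many reads.

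Amino acid makeup was read from the codons and compared with all 1988 others. Phenylalanine made up a median of 4.81% of codons in members and 4.10% in the others, with 47 of 60 members above the others' median, and asparagine 6.29% against 5.36% (44 of 60). Isoleucine was at 6.86% and 6.25% (43 of 60) and cysteine at 1.55% and 1.13% (41 of 60). Alanine was lower, at 4.61% against 5.46%, with 16 of 60 members above the others' median, as was valine at 5.12% against 5.82% (21 of 60). Between 1.88 and 3.96 reads per codon, the middle range of the members, phenylalanine was at 4.85% in 30 members and 4.15% in 566 others, with 23 of the 30 above. Isoleucine was at 6.97% and 6.34% (25 of 30), and alanine at 4.01% and 5.11% (7 of 30). Over all 60 members proline was at 3.91% against 4.18% in the others, with 26 of 60 above. In the middle range of read density it was at 3.60% and 4.35% (8 of 30). Cysteine and valine were more even there, with 18 and 13 of 30 above. Asparagine was at 6.28% and 5.50%, with 17 of 30 above, so that its direction over genes was less even there.

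Within genes, CCG and CGA had the most footprints for their number among sense codons, in members and in other sparsely covered genes. Each codon's footprints were set against the number expected if a gene's footprints were even over its codons. For a like depth, members were compared with the 623 eligible others that have at most 185 footprints, the number of CPA1. The proline codon CCG held 88 footprints in members, 5.05 times the expected number (4.05 to 6.22), and stood at 4.90 (4.70 to 5.12) in those others. Its largest part, 14 footprints, came from PCL5, where CCG occurs 3 times. SIP5 also had CCG as its leading codon, with 12 of its 57 footprints on 3 occurrences. The arginine codon CGA held 52, or 3.99 times the expected number (2.98 to 5.24), against 4.33 (4.06 to 4.61), and 10 of the 52 were in HST2. The leucine codon CTG was at 2.32 (1.86 to 2.87) and 2.59 (2.48 to 2.70). The intervals overlap for all 3 codons.

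For 7 of 64 codon kinds the intervals of members and those others did not overlap. Set against all 1599 eligible others, which are covered more deeply, that number was 16 and included all 7. The set of at most 185 footprints was chosen after these values were seen, and it is still covered more deeply than the members. The glycine codon GGG was at 2.57 (1.91 to 3.38) in members and 1.33 (1.23 to 1.43) in the others, with footprints in 17 of the 56 members that have it. Both aspartate codons were higher in members, GAC at 1.35 (1.06 to 1.69) against 0.885 (0.836 to 0.936) and GAT at 1.14 against 0.846 (0.810 to 0.883), as was isoleucine ATC at 1.18 (0.886 to 1.55) against 0.713 (0.664 to 0.764). Each was also taken without the member that gave it the most footprints. GGG then stood at 2.29 (without YLR108C), GAC at 1.20 (without CTO1), GAT at 1.08 (without HST2) and ATC at 1.00 (without YPL162C). No intervals were computed for these values, so whether each codon stays apart without that member was not tested. Asparagine AAC was lower, at 0.402 (0.271 to 0.574) against 0.661 (0.622 to 0.702), as were serine AGT at 0.499 (0.309 to 0.763) against 0.946 (0.885 to 1.01) and tyrosine TAC at 0.629 (0.415 to 0.915) against 1.145 (1.08 to 1.21). CLG1 gave 12 of the 27 footprints on TAC, and without it TAC stood at 0.380. These intervals take every footprint as independent, which amplified copies are not, so they are too narrow. Over all preferred codons, members were at 0.839 (0.790 to 0.890) and the others with at most 185 footprints at 0.799 (0.789 to 0.809).

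On stop codons, 31 footprints were recorded over the 60 members, 4.14 times the expected number (2.81 to 5.87). The value was 4.80 (4.50 to 5.11) in the eligible others with at most 185 footprints. TGA carried 21 of the 31 in the 23 members that end with it. Its value was 7.47 (4.63 to 11.4) in members and 6.45 (5.84 to 7.11) in those others, with overlapping intervals. A stop codon without footprints was found in 44 of 60 members (73.3%, 60.3% to 83.9%) and in 39.7% of the eligible others. Among genes under 40 footprints it was found in 25 of 32 members (78.1%) and 130 of 153 others.

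The concentration of footprints on few codon kinds was measured by a pair index. It is the chance that a pair of footprints of a gene fall on the same kind of codon, divided by that chance under even placement. The median was 2.47 in members and 1.39 in the eligible others. The index was highest in CTO1, at 6.17, where CTG held 9 of 31 footprints on 4 occurrences, followed by YPL162C at 5.41, where ATC held 9 of 29. TFA1 was lowest, at 0.953, and CPA1 had 1.25. The index fell with footprint number over the 2048 genes (Spearman correlation -0.807). At 25 to 39 footprints the medians were 2.58 in members and 3.14 in 153 others, at 40 to 79 they were 2.33 and 2.31, and at 80 to 199 they were 1.52 and 1.67. In each of those ranges the medians of members lay below or close to those of the others.

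**Figure D5:**
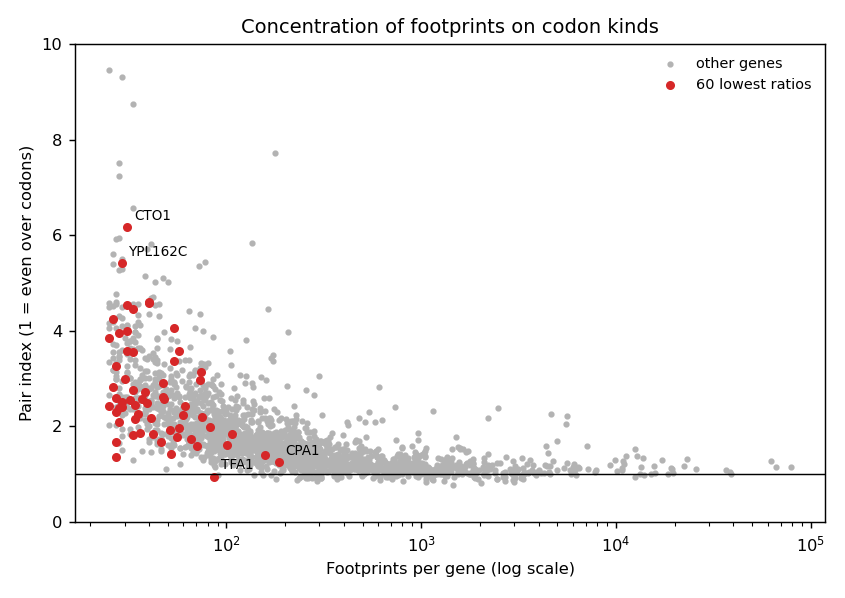
Pair index against footprints per gene on a log scale, with the 60 lowest ratios in red, other genes of 200 to 500 codons in grey and a line at 1, the value for even placement. The index falls from shallow to deep genes in both groups, and the members, from TFA1 at 0.953 to CTO1 at 6.17, lie within the grey range for their footprint number.

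In position on the genome the members were scattered. They lay on 14 of the 16 chromosomes, with 10 on chromosome XV and none on V or IX, which hold 198, 88 and 71 of the 2048 genes. None overlapped another annotated coding gene, against 14 of 1988 others, and none had another listed gene of near-identical codon counts, against 18 of the others. One adjacent pair was found, REX3 and YLR108C on chromosome XII (364116 to 365330 and 366667 to 368124). On their left lies REA1, of 4911 codons, with a ratio of 0.0287, and on their right AHP1, with 40649 footprints and a ratio of 3.08. On chromosome XV the members RAX1 (0.250) and CPA1 (0.223) are parted only by YOR302W, the frame of the CPA1 leader peptide. Beside them lie the longer genes BUD7, of 747 codons, at 0.218 and ISW2, of 1121 codons, at 0.153. A neighbour with over 4 times a member's reads per codon was found for 13 of 57 members (22.8%, 12.7% to 35.8%) and for 19.5% (17.6% to 21.6%) of the eligible others. The use of strand in the authors' counting is not given in the sources used here, so reads from neighbouring transcripts that run into a gene cannot be told apart from its own.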

How the data were processed

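The labels' protocols describe sucrose gradient purification of footprints from 80S ribosomes, alkaline fragmentation of total RNA and Ribo-Zero depletion. Per the submitters' processing notes, the tools included HTSeq, HISAT2, Bowtie2 and cutadapt, with the build sacCer3. No settings are stated for them. The deposited footprint columns are raw counts per codon kind and gene, per the file headers, and 64 further columns behave as codon occurrences. The abundance column, headed FPKM, was deposited by the authors on what its values show to be a CPM scale without division by length: every value was within 0.001 reads of a multiple of 0.0459 CPM, the worth of 1 read among 21771294. Reads were recovered with that step.

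Ratios were given Clopper-Pearson intervals on the footprints among a gene's footprints and reads, shares exact binomial intervals and codon values exact Poisson intervals, all at 95%, computed with Python 3.11.15, SciPy 1.17.1 and pandas 2.3.3. Amplified reads are not independent molecules. Symbols and coordinates came from RefSeq R64, which matched all but 1 identifier and all 60 members. Near-identical means a codon count distance of at most 0.05. The ratio and the pair index were tested on simulated data. For the ratio, the genes lowered there all had more reads than most members, so recovery at the members' depth was not tested. Named genes are the lowest 12, the deepest, those on lists, those beside the limit and the extremes of each feature, and the text adds the remaining members, grouped by role. Related genes, role groups and named codons were chosen after values were seen, as was the matching of list names through RefSeq synonyms, which put SPT14 on a list. The members and lists were chosen with earlier results of these data known.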

Additional observations from a re-analysis of the deposited data

How the results depend on the processing

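No paired analysis was possible because there is a single library of either kind, so none could be left out either. Upstream ATG and start context were planned and not run, for want of sequence. Of the 60 members, 60 were found again without stop codons and 54 without each gene's leading codon kind. With abundance multiplied by length 49 were found again, and 43 with the length line subtracted. Leaving out overlapping or near-identical genes also kept 60, but no member is such a gene, so none could drop out. The range of 300 to 500 codons kept 50, an outcome fixed in advance, since the other 10 members are shorter. A minimum of 50 footprints kept 20, since 40 members lie below it, and the 30 lowest ratios hold 30. The preferred codon share, 43.4%, became 45.0% with the minimum of 50 footprints and was between 43.0% and 43.8% under the other settings. The number of members on a list, 12, was 19 among the 120 lowest ratios. Of members, 91.7% had a pair index above the median of the others, and 70% when set against genes with at most 185 footprints. That comparison was chosen after the data were seen, and members are still covered more thinly than those genes. Depth limits most ratios. The interval of HAC1 lies apart from those of all other members. From GAL80 (0.0370 to 0.0833) and PCL5 (0.0576 to 0.0924) on, the intervals of members next in rank overlap, so counting does not resolve the order of such neighbours. Some members further apart in rank are resolved, such as PCL5 and CLG1 (0.119 to 0.164).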
